A study of Homo sapiens with 18 samples.

Results

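The 9 genes described here encode matrix proteases, the urokinase plasminogen activator system, an inhibitor of each, and tissue factor. They are MMP1, MMP9, MMP10, MMP14, PLAU, PLAUR, SERPINB2, TIMP1 and F3, chosen by name and found by Entrez gene ID among the 23604 rows that the 8 RNA-Seq tables hold between them, and each of the 9 had a row in at least 1 library. The cells are MCF10A-Er-Src, an immortalised human breast epithelial line that carries a v-Src kinase fused to the ligand-binding part of the estrogen receptor, so that tamoxifen switches the kinase on and transforms the cells. Cells without tamoxifen are called NT and cells given tamoxifen TAM, and each kind was then kept for 4 h in DMSO or in triptolide (TPL), at a dose labelled TPL-125nM. TPL is a plant compound that inhibits transcription through XPB, a subunit of the factor TFIIH. This gave the groups NT, NT + TPL, TAM and TAM + TPL, with 2 RNA-Seq libraries each, described as biological replicates in the methods of the study, and 1 list of RNA polymerase II (RNAPII) ChIP-Seq peaks each. All groups share the Er-Src transgene, and all come from this single line.

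Matrix metalloproteinases (MMPs) are zinc enzymes that cut collagens and other proteins outside the cell, and tissue inhibitors of metalloproteinases such as TIMP1 bind and block them. In the plasminogen system, the serine protease urokinase (PLAU) binds its surface receptor (PLAUR) and turns plasminogen into plasmin, while the serpin SERPINB2, also called PAI-2, inhibits urokinase. Tissue factor (F3) is the membrane protein that starts blood coagulation by binding factor VII, and it is also found on many epithelial cells, where proteases of both systems take part in invasion and wound repair.

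RNA-Seq depth was even, between 7461309 and 8349448 expected counts per library. An expected count is the number of reads that RSEM assigned to a gene, and FPKM divides it by transcript length and library total, so a level in FPKM can be compared between genes. FPKM and scaled counts are shares of the reads of a library. Higher or lower with TPL, an inhibitor of transcription, thus means a larger or smaller share and not an amount of mRNA per cell. Replicates differed most in NT + TPL, where the SD of the log2 difference between the 2 libraries was 0.71, against 0.487 to 0.527 in the other groups. All 8 markers of breast epithelium (KRT5, KRT14, KRT6A, TP63, ITGB4, CDH1, EPCAM and LAMB3) were detected in every group. Their summed level was 11110.5 to 11718.74 FPKM in NT, 5868.82 to 8006.91 in NT + TPL, 6408.43 to 6792.03 in TAM cells with DMSO and 3440.24 to 3728.37 with TPL. Most of each sum was KRT5 and KRT6A. With DMSO, KRT5 had 6249.55 and 5776.13 FPKM in NT against 1308.36 and 1307.94 in TAM. KRT6A had 4101.44 and 3969.42 against 4062.49 and 4623.26. The 5 fibroblast markers summed to at most 6.35 FPKM and the 4 endothelial markers to at most 2.45, with CDH5 and VWF under 0.5 FPKM in every library. The 4 leukocyte markers summed to between 66.2 and 514.51 FPKM, most of it CD68, while CD3E stayed under 0.5 FPKM. TAM replicate 2 and TAM + TPL replicate 1 stood apart in holding 66 and 60 counts of MMP2 and 48 and 47 of COL1A2, against at most 5 and 1 in the other libraries (singled out after their values were seen), so the calls of the members and of the other genes below were also computed without both. That fit leaves 1 library in each TAM group and so less data on the spread between replicates. A call lost in it therefore cannot be laid to those MMP2 and COL1A2 counts. In these bulk samples, fewer cells of a type and less RNA per cell cannot be told apart.

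TPL lowered F3 mRNA in both kinds of cell, and no other member was called on the rows as deposited. The levels of the inhibitors SERPINB2 and TIMP1, of PLAU over its 2 rows and of PLAUR were also lower with TPL in both kinds of cell, though PLAUR only 1.06-fold in TAM cells. MMP14 was lower with TPL in NT cells and higher with it in TAM cells. By the ratio of the mean level in TAM + TPL to that in NT + TPL, the highest was PLAU, taken over its 2 rows, followed by MMP14, MMP1 and PLAUR. This order was not tested, and in NT + TPL it rests on 22 and 11 counts for PLAU and 8 and 11 for MMP1. A call here needs an adjusted p (edgeR's quasi-likelihood test, Benjamini-Hochberg over all rows tested) no higher than 0.001 together with a log2 fold change of 1.2 or more in either direction. On the rows as deposited, 8 of the 9 members passed the filter on low counts, and 1 of the 8 was called with TPL in NT cells, where 3.93% of 16948 rows were called, and 1 of the 8 in TAM cells, where 2.88% were.

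**Figure D1:**
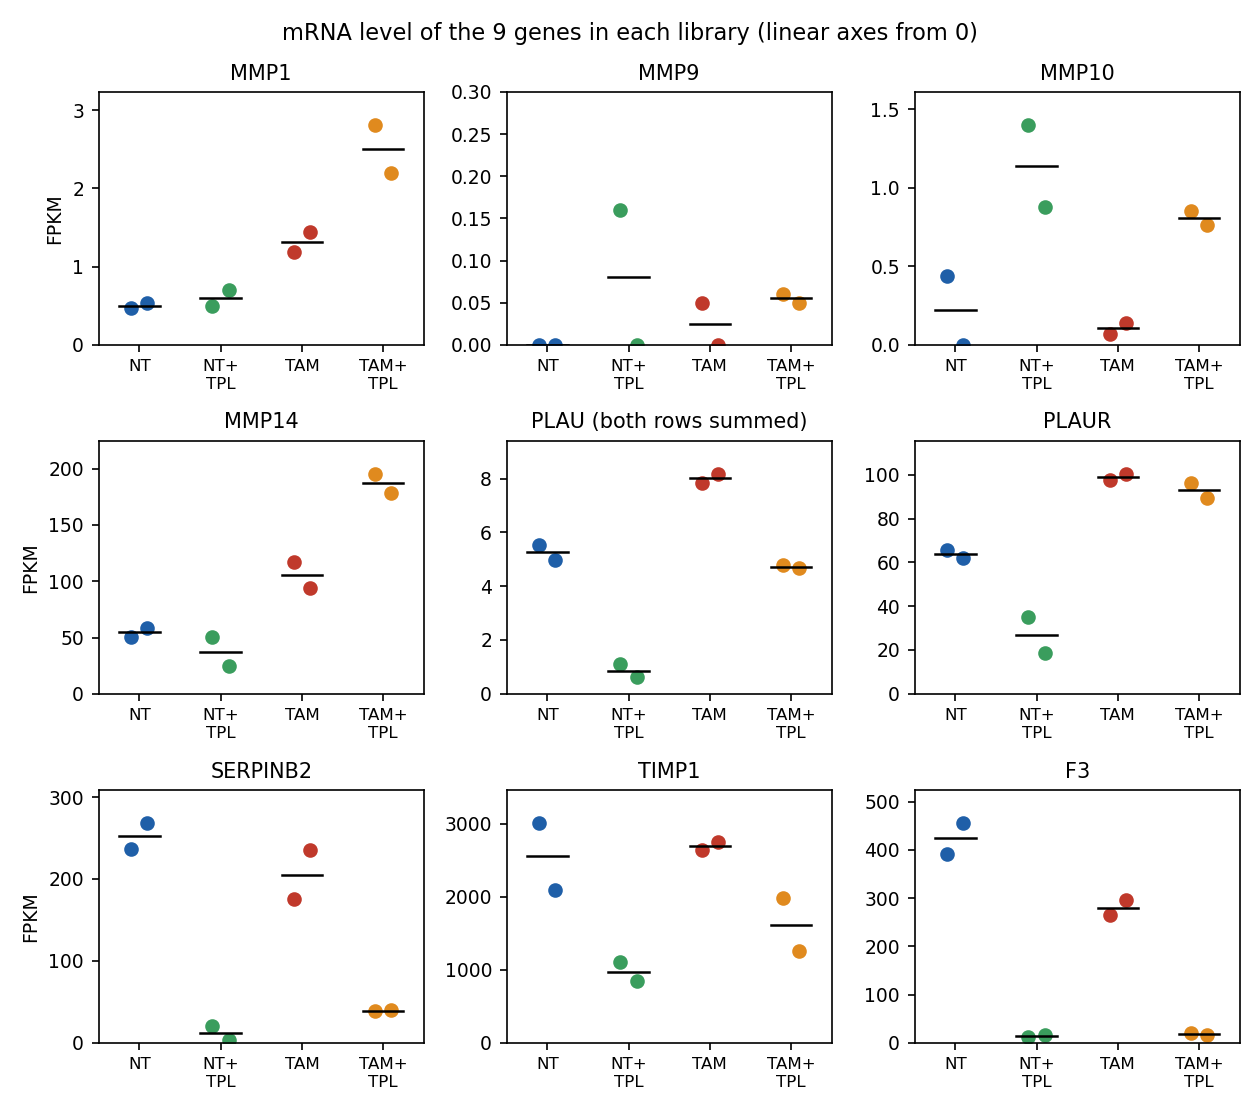
FPKM of each of the 9 genes (vertical axes, linear and starting at 0) in the 2 libraries of each group (points) with the group mean (line). F3 and SERPINB2 drop to the bottom of their panels in both TPL groups, whereas MMP14 reaches 178.55 and 195.34 FPKM in TAM + TPL.

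Several genes had their reads spread over more than 1 row, since the tables list genes by gene ID or, for some transcripts, by RefSeq accession, and 1052 symbols had more than 1 row. PLAU is such a gene, as its reads appeared under the gene ID in some libraries and under the accession in others. The rows of each gene were therefore also summed over the whole table, a choice made after the values were seen, which left 15763 genes tested and 8 of the 9 members. With summed rows, 4 of the 8 members were called with TPL in NT cells (F3, SERPINB2, PLAU and TIMP1, all lower), where 12.7% of all genes were called. In TAM cells 1 of the 8 was called (F3), where 11.2% of all genes were. Without TAM replicate 2 and TAM + TPL replicate 1, where 1 library is left in each TAM group, summed rows called fewer members in both kinds of cell. This held also for NT cells, whose libraries were all kept, and the share of all genes called in that fit is not set beside it here. Without adjustment, p was under 0.05 for 4 of the 8 members in NT cells, beside 47.8% of all rows as deposited, and for 4 of the 8 in TAM cells, beside 45.1%. DESeq2 called 4 members in NT cells (F3, SERPINB2, TIMP1 and PLAUR, all lower), where it called 15.1% of all rows, and F3 alone in TAM cells, where it called 13.4%. With 2 libraries against 2, an exact permutation test cannot go below p = 0.333 (two-sided), so no single-gene permutation p is given.

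In the comparison of TAM with NT cells, no member was called on the rows as deposited, either with DMSO (0 of 8, with 0.655% of all rows called) or with TPL (0 of 8, with 0.596% called). Without adjustment, p was under 0.05 for 4 of the 8 members with DMSO (MMP1, MMP14 and PLAUR higher in TAM cells, F3 lower), beside 19.9% of all rows. With TPL this held for 5 of the 8 (MMP1, MMP14, PLAUR, SERPINB2 and TIMP1, all higher in TAM cells), beside 21.3% of all rows. DESeq2 called 0 members with DMSO, where it called 4.38% of all rows, and 2 with TPL, MMP14 and PLAUR, where it called 3.94%. With summed rows, 0 of the 8 were called with DMSO, where 2.94% of all genes were, and 3 of the 8 (MMP14, PLAU and PLAUR, all higher in TAM cells) with TPL, where 2.59% were. These calls depended on single libraries. With summed rows and TPL, none of them stayed in every fit with 1 library left out. Each such fit leaves 1 library in a group, and the share of all genes called in it is not set beside it here.

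**Figure D2:**
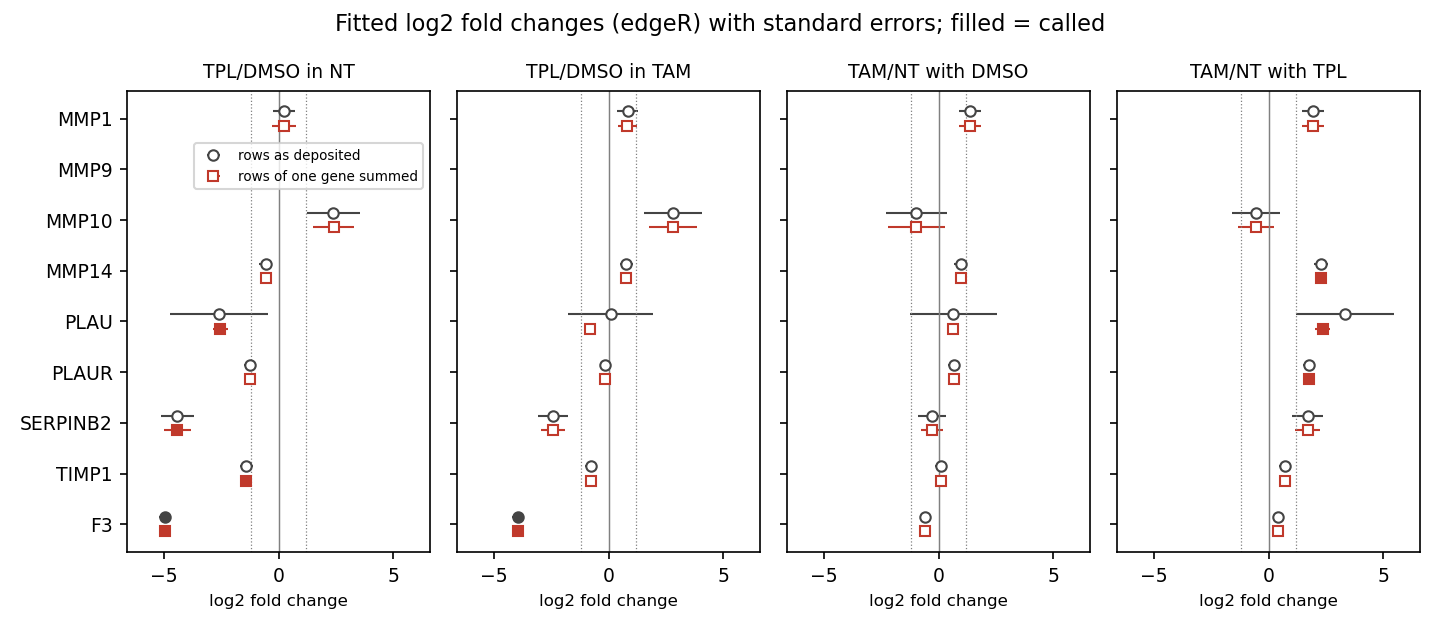
Fitted log2 fold changes (horizontal axes) with standard errors for the members in the 4 comparisons, from the rows as deposited (circles) and from summed rows (squares), filled where called, with dotted lines at 1.2 in either direction. MMP9 was not tested and has no point, and the PLAU error bar shrinks once its rows are summed.

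Among the proteases, MMP14 was by far the most abundant. MMP14 (also called MT1-MMP) is anchored in the cell membrane, cleaves collagen and activates the MMP2 proenzyme. Its gene lies on the plus strand at chr14:23305769-23318250 (hg19). Its level was 50.69 and 58.40 FPKM in the NT libraries and 50.08 and 25 in NT + TPL. In TAM it was 117.03 and 93.91 FPKM, and in TAM + TPL 195.34 and 178.55. The groups did not overlap in any of the 4 comparisons, although the first NT + TPL library lay just below the lower NT library. As group means (± SD, n = 2), the order was NT + TPL at 37.5 ± 17.7 FPKM, NT at 54.5 ± 5.45, TAM at 105 ± 16.4 and TAM + TPL at 187 ± 11.9. With DMSO the mean in TAM cells was 1.93 times that in NT cells, and with TPL it was 4.98 times.

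For MMP14, the log2 fold change with TPL was -0.56 (SE 0.29, adjusted p 0.167) in NT cells and 0.78 (SE 0.29, adjusted p 0.0762) in TAM cells, neither of which was called. The value in NT cells was -1.10 without NT + TPL replicate 1 and -0.15 without NT + TPL replicate 2. The difference between these effects was 1.34 (SE 0.41) with an adjusted p of 0.331, which is not significant. The comparison of TAM with NT cells gave 0.97 (SE 0.29, adjusted p 0.110) with DMSO and 2.30 (SE 0.30, adjusted p 0.00622) with TPL, and the latter was called with summed rows (adjusted p 0.000165). Without TAM replicate 2 and TAM + TPL replicate 1, the MMP14 change in TAM against NT cells with TPL was 2.23 and its adjusted p with summed rows was 0.0218, which is not a call. Without NT + TPL replicate 1, the difference between the TPL effects on MMP14 was 1.87 with summed rows, with an adjusted p of 0.000851, which is a call that the other 7 libraries left out in turn did not give.

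The 3 other matrix metalloproteinases were near the limit of detection. MMP1, interstitial collagenase, had 0.47 and 0.53 FPKM in NT and 0.50 and 0.70 in NT + TPL. The TAM libraries had 1.19 and 1.44 FPKM and those of TAM + TPL 2.81 and 2.19, from 8 to 42 counts per library overall. Both TAM groups lay above both NT groups. The summed counts per library total were 2.57 times as high in TAM as in NT with DMSO (45 against 17 counts, 95% exact interval of counting error alone 1.44 to 4.79) and 3.95 times as high with TPL (77 against 19 counts, 2.36 to 6.91). The fitted log2 fold changes of MMP1 were 1.37 (SE 0.47, adjusted p 0.161) and 1.94 (SE 0.46, adjusted p 0.0552), and neither was called. With TPL, MMP1 changed by 0.25 (SE 0.48, adjusted p 0.711) in NT cells, a sign that turned with GAPDH as the reference, and by 0.82 (SE 0.44, adjusted p 0.189) in TAM cells.

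MMP10, stromelysin 2, was seen mainly in the libraries with TPL. Its level was 0.44 and 0 FPKM in NT and 1.4 and 0.88 in NT + TPL. In TAM it had 0.07 and 0.14 FPKM, and in TAM + TPL 0.85 and 0.76. The TPL libraries were thus above the DMSO libraries in both kinds of cell. The ratio of summed counts per library total was 5.51 in NT cells (31 against 6 counts, 95% exact interval 2.26 to 16.2) and 7.84 in TAM cells (22 against 3 counts, 2.35 to 40.9). The fitted MMP10 changes of 2.39 (SE 1.17, adjusted p 0.147) and 2.82 (SE 1.26, adjusted p 0.127) were not called, and the first of them was 1.41 without NT replicate 2 and 7.01 without NT replicate 1. For MMP10, 6 of the 7 non-zero expected counts were not whole numbers, as RSEM gives where it divides a read among transcripts. MMP9, gelatinase B, had between 0 and 3 counts in every library and was not tested. No fold is given for MMP9, because every group was at or below 3 counts.

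MMP1 (chr11:102660132-102668891) and MMP10 (chr11:102641233-102651359) lie on the minus strand within the pseudogene WTAPP1, which is annotated on the opposite strand, and MMP9 (chr20:44637547-44645200, plus strand) overlaps the antisense RNA SLC12A5-AS1 over 3062 bases. The strand setting of the libraries is not given in the sources used here, so reads from these genes and from their antisense partners may not be separable. The same holds for PLAU beside C10orf55 and for TIMP1, which lies inside SYN1. SERPINB2 overlaps another annotated protein-coding gene on the same strand over 6715 bases, which a strand setting would not separate.

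PLAU, the urokinase gene, lies on the plus strand at chr10:75668935-75677254. The gene-ID row alone had 5.53 and 0 FPKM in NT and 0.82 and 0 in NT + TPL. In TAM cells it had 0.37 and 8.17 FPKM without TPL and 4.77 and 4.68 with it. These replicates disagree to the point of presence and absence. The accession row held the remainder, with 96 counts in NT replicate 2, 5.09 and 11 in NT + TPL, 148.54 in TAM replicate 1 and 0 in the other 4 libraries. Summed over both rows, PLAU had 108 and 96 counts in NT and 22 and 11 in NT + TPL. In TAM cells the sums were 157 and 164 counts without TPL and 86 and 92 with it. The sums agree closely between replicates in 3 of the 4 groups, and the groups no longer overlap.

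**Figure D3:**
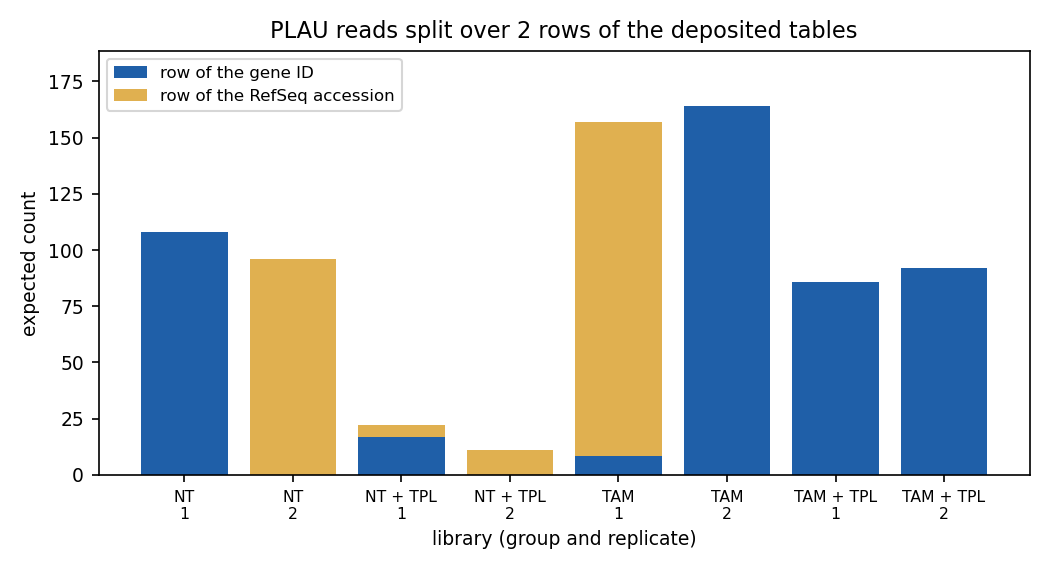
Expected counts of PLAU per library (vertical axis, starting at 0), stacked by the row that holds them, the gene ID or the RefSeq accession. In NT replicate 2 and NT + TPL replicate 2 all counts are on the accession row, whereas in both TAM + TPL libraries all are on the gene-ID row.

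With both rows, the mean PLAU level was 5.26 ± 0.389 FPKM in NT (SD, n = 2) and 0.855 ± 0.347 in NT + TPL. It was 8.0 ± 0.233 FPKM in TAM cells with DMSO and 4.72 ± 0.0636 with TPL. TPL thus went with a 6.15-fold lower mean in NT cells and a 1.69-fold lower mean in TAM cells. With TPL in NT cells, PLAU fell by 2.55 on the log2 scale (SE 0.31, adjusted p 8.25e-05), and was called in each of the 8 fits with 1 library left out. In TAM cells the PLAU change was -0.80 (SE 0.26, adjusted p 0.0272), which is not a call. Against NT cells, PLAU in TAM cells was 0.62 higher on the log2 scale with DMSO (SE 0.26, adjusted p 0.172) and 2.36 higher with TPL (SE 0.32, adjusted p 0.000492, called). The call with TPL was lost without any 1 of the NT, TAM or TAM + TPL libraries, with adjusted p values up to 0.00578. Without TAM replicate 2 and TAM + TPL replicate 1, that PLAU change was 2.35 with an adjusted p of 0.0315. The difference between the TPL effects on PLAU was 1.74 (SE 0.41) with an adjusted p of 0.0839. On the gene-ID row alone, none of these PLAU comparisons was called, and the fitted change in NT cells with TPL was -2.60 with an SE of 2.13.

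PLAUR, the urokinase receptor held to the membrane by a lipid anchor, lies on the minus strand at chr19:44150247-44174699. Its level was 65.61 and 61.80 FPKM in NT and 35.24 and 18.63 in NT + TPL. The TAM libraries had 97.53 and 100.37 FPKM, and the TAM + TPL libraries 96.44 and 89.62. NT + TPL was lowest and NT next, and TAM and TAM + TPL were close to each other. The mean PLAUR level was 2.37-fold lower with TPL in NT cells but only 1.06-fold lower in TAM cells. The fitted change in NT cells was -1.24 (SE 0.25, adjusted p 0.00979, and 0.00134 with summed rows), below the call in both. In TAM cells it was -0.14 (SE 0.24, adjusted p 0.688), a sign that turned under upper quartile scaling. Between TAM and NT cells PLAUR differed by 0.67 (SE 0.24, adjusted p 0.188) with DMSO and by 1.78 (SE 0.25, adjusted p 0.00861) with TPL, the latter called with summed rows (adjusted p 0.000458, and 0.0436 without TAM replicate 2 and TAM + TPL replicate 1). The difference between the TPL effects on PLAUR was 1.11 (SE 0.35, adjusted p 0.345), which is not significant.

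SERPINB2, the urokinase inhibitor PAI-2, was lower with TPL in both kinds of cell. It lies on the plus strand at chr18:61538926-61571122. It had 236.11 and 268.30 FPKM in NT and 21 and 3.02 in NT + TPL. In TAM cells it had 175.53 and 235.15 FPKM without TPL and 38.82 and 39.82 with it. The TPL libraries lay far below the DMSO libraries in both kinds of cell, and the NT + TPL libraries were farther apart in proportion than the replicates of any other group. The mean was 21.0-fold lower with TPL in NT cells and 5.22-fold lower in TAM cells. On the log2 scale SERPINB2 differed by -4.42 (SE 0.72, adjusted p 0.00441) in NT cells, which was called with summed rows (adjusted p 0.000115) and in each of the 8 fits with 1 library left out. The size of that change depended on the NT + TPL libraries, since it was -6.35 without replicate 1 and -3.62 without replicate 2. In TAM cells the change was -2.43 (SE 0.65, adjusted p 0.0290, and 0.00321 with summed rows), which is not a call. The difference between the TPL effects on SERPINB2 was 1.99 (SE 0.90, adjusted p 0.489). It was 3.92 without NT + TPL replicate 1 with summed rows (adjusted p 1.88e-05), a call that the other 7 libraries left out in turn did not give. TAM and NT cells with DMSO differed by -0.28 (SE 0.61, adjusted p 0.868).

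TIMP1, the inhibitor that blocks most soluble MMPs, was the most abundant of the 9 transcripts in every library. Its gene lies on the plus strand at chrX:47441807-47446188. TIMP1 had 3013.90 and 2099.29 FPKM in NT and 1102.67 and 841.05 in NT + TPL. The TAM libraries had 2639.20 and 2752.43 FPKM, and the TAM + TPL libraries 1982.88 and 1259.53. The DMSO groups overlapped each other, and both lay above the TPL groups. The mean was 2.63-fold lower with TPL in NT cells and 1.66-fold lower in TAM cells. On the log2 scale TIMP1 differed by -1.41 (SE 0.27, adjusted p 0.00793) in NT cells, which was called with summed rows (adjusted p 0.000873), although that call stayed only without NT + TPL replicate 1 or TAM + TPL replicate 1 and was lost without any of the other 6 libraries (adjusted p between 0.000310 and 0.00926 over the 8 fits). In TAM cells the change was -0.78 (SE 0.27, adjusted p 0.0609), which is not a call. TAM and NT cells differed by 0.09 with DMSO (SE 0.26, adjusted p 0.905), with the opposite sign when GAPDH was the reference, and by 0.72 with TPL (SE 0.27, adjusted p 0.178).

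F3, tissue factor, had the largest fitted change with TPL of the 8 members tested with summed rows in both kinds of cell when all 8 libraries were used. In NT cells that order depended on single libraries, since SERPINB2 was at -6.35 without NT + TPL replicate 1 and MMP10 at 7.02 without NT replicate 1. The gene lies on the minus strand at chr1:94994729-95007315. F3 had 392.48 and 455.95 FPKM in NT and 11.21 and 16.71 in NT + TPL. In TAM cells it had 264.92 and 295.84 FPKM without TPL and 20.90 and 16.54 with it. The mean fell 30.4-fold with TPL in NT cells, from 424 ± 44.9 FPKM (SD, n = 2) to 14 ± 3.89, and 15.0-fold in TAM cells, from 280 ± 21.9 to 18.7 ± 3.08. The levels of the TPL groups overlapped each other. On the log2 scale the F3 change was -4.95 (SE 0.27, adjusted p 0.000195) in NT cells and -3.95 (SE 0.26, adjusted p 0.000324) in TAM cells. With 1 library left out at a time, the F3 change stayed between -5.29 and -4.66 in NT cells and between -4.11 and -3.79 in TAM cells. Its adjusted p then lay between 0.000723 and 0.00252 in NT cells and between 0.000329 and 0.00604 in TAM cells, so the call was lost without most libraries on the rows as deposited, whereas with summed rows all 8 such fits called it in both kinds of cell. Without TAM replicate 2 and TAM + TPL replicate 1, F3 in TAM cells with TPL differed by -4.04 with summed rows and an adjusted p of 0.00519, which is not a call.

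With DMSO, F3 was 1.51-fold lower in TAM than in NT cells (-0.57 on the log2 scale, SE 0.22, adjusted p 0.218), and with TPL the change was 0.43 (SE 0.24, adjusted p 0.368), neither of which was called. The difference between the TPL effects on F3 was 1.0 (SE 0.33, adjusted p 0.364). For the difference between the TPL effects as a whole, 0 of the 8 members were called on the rows as deposited, where 0.0% of all rows were, and DESeq2 also called 0, where it called 0.826%. Without adjustment, p was under 0.05 for 3 of the 8 (MMP14, PLAUR and F3, with a higher value in TAM cells for each), beside 10.6% of all rows. With summed rows 0 of the 8 were called, where 0.019% of all genes were.

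Within a library, the FPKM of 2 members can be set against each other, as a ratio of mRNA levels that needs no scaling between libraries. TIMP1 is a weak inhibitor of MMP14, which like other membrane-type enzymes is blocked better by TIMP2, so their ratio sets the most abundant inhibitor against the most abundant protease and not an inhibitor against its target. The ratio of TIMP1 to MMP14 was 59.5 and 35.9 in NT and 22.0 and 33.6 in NT + TPL. In TAM cells it was 22.6 and 29.3 without TPL and 10.2 and 7.05 with it. It was lowest in TAM + TPL and highest in NT, while NT + TPL and TAM overlapped. The ratio of SERPINB2 to PLAU (both rows) was 42.7 and 53.9 in NT and 19.1 and 4.95 in NT + TPL. The TAM libraries had ratios of 22.4 and 28.8, and the TAM + TPL libraries 8.14 and 8.51. Here both TPL groups lay below both DMSO groups, and the TPL groups overlapped. The ratio of PLAUR to PLAU was 11.9 and 12.4 in NT and 12.4 and 12.3 in TAM, and it was 32.0 and 30.5 in NT + TPL and 20.2 and 19.1 in TAM + TPL. Receptor mRNA was thus in the same proportion to urokinase mRNA in NT and TAM cells with DMSO, and in a higher one in both groups with TPL. These ratios were formed after the levels were seen and carry no test.

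**Figure D4:**
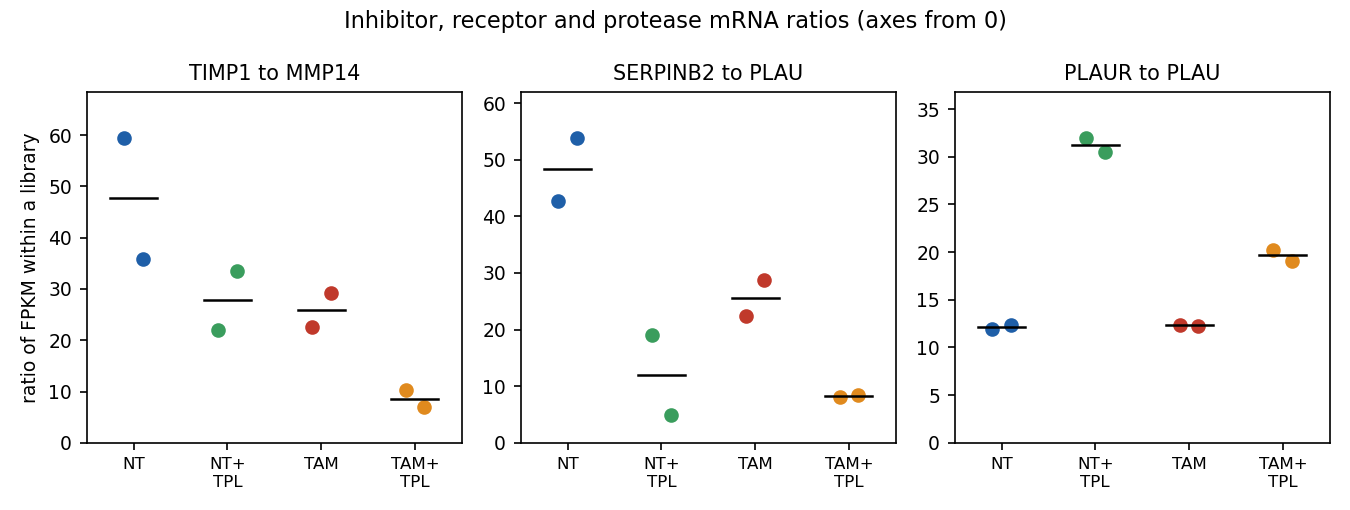
Ratios of FPKM within each library (vertical axes, starting at 0) for TIMP1 to MMP14, SERPINB2 to PLAU and PLAUR to PLAU, with points for the 2 libraries of a group and a line for their mean. TAM + TPL has the lowest TIMP1 to MMP14 ratios, 10.2 and 7.05, and NT + TPL the highest PLAUR to PLAU ratios, 32.0 and 30.5.

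RNAPII was mapped with the antibody 8WG16, and the lists hold starts and ends of peaks with no height and no replicate. A member counted as occupied when the start site (TSS) of its canonical transcript lay within a listed peak. In NT cells 3 of the 9 members were occupied (F3, MMP14 and PLAU), beside 47.7% of 19881 protein-coding genes. With NT + TPL it was 1 of 9 (PLAUR), beside 38.2%. With TAM it was 5 of 9 (F3, MMP14, PLAU, TIMP1 and SERPINB2), beside 42.1%, and with TAM + TPL 2 of 9 (F3 and TIMP1), beside 37.4%. The peak names in the TAM list carry another calling setting than those of the other 3 lists, so a difference between TAM and any other group cannot be told apart from that setting. No peak was listed within 1 kb of the TSS of MMP1, MMP9 or MMP10.

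F3 had the most extended RNAPII domain of the 9 genes. In NT cells it was a single peak at chr1:94991622-95009052, 17431 bases long, which covered 100% of the gene and ranked 9 in width among 11222 peaks. In TAM cells it was chr1:94995013-95008857, 13845 bases and 97.7% of the gene, ranked 6 of 11056. No F3 peak was listed for NT + TPL, and in TAM + TPL there was one of 379 bases at the TSS, from -190 to 188, over 1.5% of the gene. The F3 peaks were thus shorter or absent in the same groups in which F3 mRNA was low. The lists as a whole also held fewer peaks with TPL, 8653 against 11222 in NT cells and 8464 against 11056 in TAM cells. The widest peak was 24995 against 46310 bases in NT cells and 13189 against 44405 in TAM cells. The median width was 553 against 632 bases in NT cells and 455 against 406 in TAM cells. Whether the change in peak width is particular to F3 was not tested.

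At the other members the peaks were narrower. MMP14 had a peak of 2648 bases in NT (from -482 to 2165 relative to the TSS) and of 2996 bases in TAM (-130 to 2865). With TPL it had one of 363 bases in NT cells, from 630 to 992, and none in TAM + TPL, the group in which MMP14 mRNA was highest. PLAU had 1150 bases in NT and 256 in TAM and none with TPL. PLAUR peaks lay downstream of the canonical TSS in NT (1288 bases, 668 to 1955), in TAM (1463 bases, 533 to 1995) and in TAM + TPL (454 bases, 794 to 1247), and in NT + TPL the PLAUR peak was 169 bases over the TSS (-20 to 148). The PLAUR peaks in NT and TAM lay over another annotated TSS of the gene.

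TIMP1 had peaks of 1108 and 1082 bases inside and past the gene in NT, and in TAM one of 372 bases at the TSS and one of 4909 bases that covered 83.1% of the gene. In TAM + TPL the TIMP1 peak was 248 bases at the TSS (-111 to 136), and none was listed in NT + TPL. SERPINB2 had 204 bases at the TSS in TAM and none elsewhere, although its mRNA was above 236 FPKM in both NT libraries. A high mRNA level and a listed peak therefore did not always go together.

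**Figure D5:**
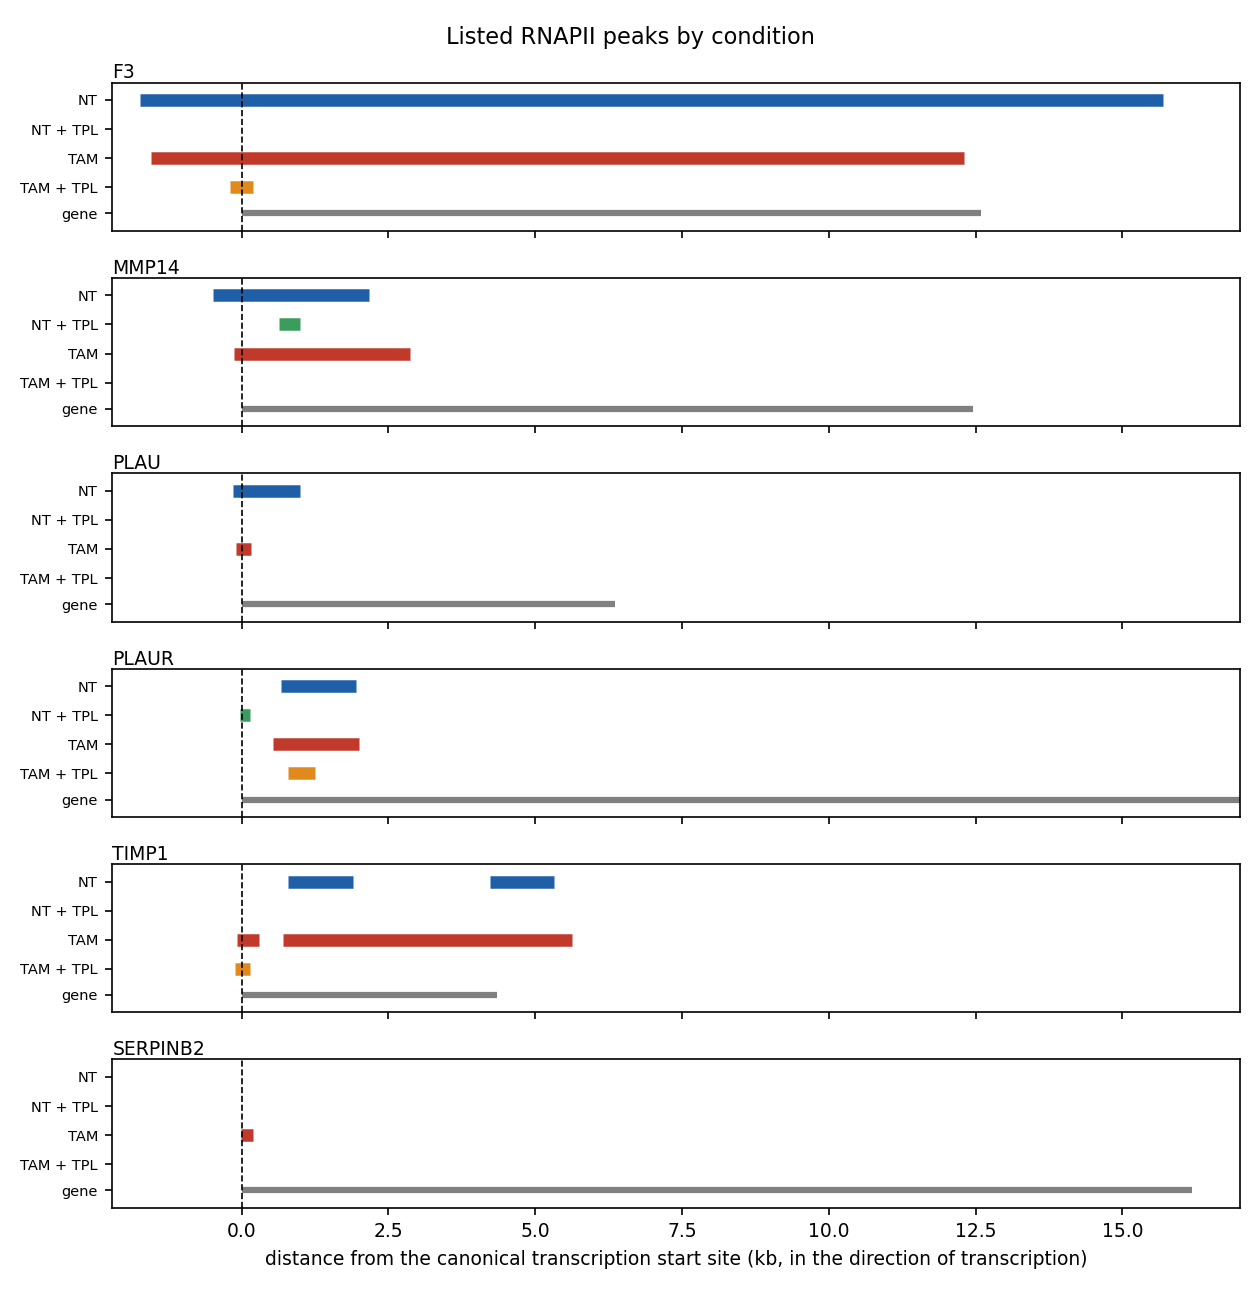
Position of the listed RNAPII peaks (coloured bars) relative to the canonical TSS (dashed line, kb along the direction of transcription) for the 6 members with a peak, by condition, with the gene body in grey. The F3 bars span the gene in NT and TAM and are absent or 379 bases long with TPL, and the grey bar of PLAUR runs past the right edge.

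The proximal promoters of 4 members on which the results turn are shown because 2 of them (F3, SERPINB2) had the largest fitted falls with TPL in both kinds of cell and 2 (MMP14, TIMP1) have the highest mRNA levels among the genes with TPL. Each is the part of the 200 bases before the canonical TSS that lies in no annotated exon, read on the strand of the gene from build 37 (hg19), and capitals mark a TATA box (TATAAA), an AP-1 site (TGAGTCA or TGACTCA) or a GC box (GGGCGG) on either strand.
F3, chr1:95007316-95007492, minus strand: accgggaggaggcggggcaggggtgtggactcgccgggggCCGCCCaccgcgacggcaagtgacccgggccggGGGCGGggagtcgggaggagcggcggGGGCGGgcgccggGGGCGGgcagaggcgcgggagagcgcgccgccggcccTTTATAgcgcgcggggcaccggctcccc
SERPINB2, chr18:61554739-61554938, plus strand: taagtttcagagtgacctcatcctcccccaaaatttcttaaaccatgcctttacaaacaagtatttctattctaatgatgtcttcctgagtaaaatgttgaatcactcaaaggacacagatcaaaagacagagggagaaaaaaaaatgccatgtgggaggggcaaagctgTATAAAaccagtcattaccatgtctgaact
MMP14, chr14:23305594-23305768, plus strand: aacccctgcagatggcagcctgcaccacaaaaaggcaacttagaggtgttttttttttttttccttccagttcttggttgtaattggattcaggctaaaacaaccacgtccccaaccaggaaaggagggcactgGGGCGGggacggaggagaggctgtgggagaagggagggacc
TIMP1, chrX:47441635-47441806, plus strand: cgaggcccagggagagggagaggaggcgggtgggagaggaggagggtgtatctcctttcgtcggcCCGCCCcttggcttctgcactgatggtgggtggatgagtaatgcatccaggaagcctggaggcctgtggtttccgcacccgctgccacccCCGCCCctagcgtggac
F3 holds 4 GC boxes and a TATA box at -28 to -23 (read as TTTATA on this strand), and SERPINB2 holds a TATA box at -30 to -25 and no GC box. MMP14 holds 1 GC box and TIMP1 holds 2, and neither has the TATA letters. The stretches of PLAU and PLAUR lie in exons of other transcripts and are not shown.

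Over the full 200 bases, 8 members were searched. TATAAA occurred in 3 of the 8 (F3, SERPINB2 and MMP10, the last at -31 to -26), compared with 7.73% of 19881 protein-coding promoters. The AP-1 letters occurred in 2 of the 8 (MMP9 and PLAUR), compared with 2.48%, and the GC box in 4 of the 8 (F3, MMP14, PLAU and TIMP1), compared with 56.4%. The letters do not overlap between these motifs. Such a match is a description of the sequence and not a bound site.

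AP-1, the factor whose letters these are, is built from FOS and JUN family proteins, and all 7 of their genes were tested. With TPL, 2 of the 7 were called in NT cells (FOS, JUN), where 3.93% of all rows were. In TAM cells 3 were called (FOS, JUN, JUNB), where 2.88% of all rows were. With summed rows 6 and 5 were called, where 12.7% and 11.2% of all genes were, and every call was lower. The fitted changes of all 7 were negative, from -4.17 (FOS) to -1.07 (JUND) in NT cells and from -4.42 (FOS) to -1.23 (FOSL1) in TAM cells. The median log2 fold change of the 7 was -1.98 in NT cells and -1.70 in TAM cells, beside 0.09 and 0.05 over all rows tested. FOS went from 502.97 and 575.61 FPKM in NT to 33.59 and 26.73 in NT + TPL, and from 555.05 and 453.98 in TAM to 21.79 and 26.84 in TAM + TPL. All FOS values with TPL were below all values with DMSO. Between TAM and NT cells 0 of the 7 were called, with DMSO or with TPL, on either kind of row.

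Of 19 other matrix metalloproteinase genes, 9 were expressed enough to be tested. With TPL in NT cells 1 was called lower (MMP3) and 1 higher (MMP25), where 3.93% of all rows were called. In TAM cells 1 was called higher (MMP25), where 2.88% of all rows were called. The median of the 9 was 0.30 in NT cells and 0.36 in TAM cells. MMP3, stromelysin 1, had 13.69 and 16.07 FPKM in NT and 1.3 and 1.12 in NT + TPL, a log2 fold change of -3.63 (adjusted p 0.000439). MMP25, a membrane-anchored MMP, had 0.82 and 0.62 FPKM in NT and 6.26 and 6.09 in NT + TPL, and it had 0.63 and 0.47 FPKM in TAM cells without TPL and 5.27 and 4.94 with it, rises of 3.09 and 3.16 on the log2 scale. In TAM against NT cells, MMP28 fell by 3.83 with DMSO (adjusted p 0.000961), and with TPL it was at -3.37 (adjusted p 0.00134), a call with summed rows (adjusted p 1.45e-05). MMP3 was at -2.41 with DMSO (adjusted p 0.00364), also called with summed rows (adjusted p 0.000119).

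Of 4 other metalloproteinase inhibitors, 3 were tested and none was called with TPL, with medians of 0.75 in NT cells and -0.16 in TAM cells. TIMP3, which binds to the matrix, was lower in TAM than in NT cells with DMSO, at 4.64 and 4.93 against 25.34 and 31.19 FPKM, a log2 fold change of -2.55 (adjusted p 0.000566). TIMP2, a soluble inhibitor like TIMP1, had 30.02 and 36.47 FPKM in NT and 69.89 and 42.87 in NT + TPL and was not called in either TPL comparison.

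Of 12 other plasminogen system genes, 10 were tested. None was called with TPL on the rows as deposited, and with summed rows PLAT, tissue plasminogen activator, fell by 2.21 in NT cells (adjusted p 7.32e-05). SERPINE2, a serpin that inhibits thrombin and urokinase, had 2.40 and 2.52 FPKM in NT and 2.36 and 2.57 in NT + TPL, and 148.09 and 152.92 FPKM in TAM cells, reaching 344.17 and 359.22 in TAM + TPL. It rose in TAM against NT cells by 5.95 with DMSO and 7.13 with TPL on the log2 scale.

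Of 12 other genes of the tissue factor pathway, 7 were tested, and 1 of the 7 (THBD) was called lower with TPL in each kind of cell. The share of all rows called was 3.93% in NT cells and 2.88% in TAM cells. THBD, thrombomodulin, which turns thrombin toward protein C activation, went from 27.91 and 32.16 FPKM in NT to 2.83 and 1.55 in NT + TPL (log2 fold change -3.79) and from 46.44 and 44.20 in TAM to 3.20 and 4.73 in TAM + TPL (-3.56). PROCR, the protein C receptor, rose in TAM against NT cells with TPL by 1.96 (adjusted p 0.000884). TFPI, the inhibitor of the tissue factor and factor VIIa complex, is split over 2 rows. Its gene-ID row alone had 6.46 and 8.39 FPKM in NT and 19.68 and 15.84 in NT + TPL. In TAM cells that row had 28.98 and 23.65 FPKM without TPL and 46.75 and 47.43 with it. With summed rows, TFPI rose by 1.21 with TPL in NT cells and by 1.57 in TAM against NT cells with DMSO, while F3 was lower in each of these comparisons.

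The called companion and marker genes were also fitted without TAM replicate 2 and TAM + TPL replicate 1. On the rows as deposited these were 8 with TPL in NT cells, 8 in TAM cells, and 11 and 12 in TAM against NT cells with DMSO and TPL. With summed rows they were 16, 10, 17 and 16, in the same order. Fewer were called in that fit on either kind of row. It leaves 1 library in each TAM group, and the share of all rows called in it is not set beside it here. The lost calls are therefore not a result about these genes. Every one of these changes kept its sign, and SERPINE2, for example, was at 5.92 and 7.15 in TAM against NT cells with summed rows.

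For each member, the other tested row with a mean of at least 1 FPKM and the most similar pattern was found as the smallest Euclidean distance between centred group means of log2(FPKM + 1), over 4 groups and 14135 candidates. For MMP14 it was FMNL1 at a distance of 0.217, with mean levels of 5.55 FPKM in NT, 4.06 with TPL added, 14.5 in TAM cells and 22.9 with TPL added there. For TIMP1 it was HCFC1 (0.0793), with 19.5, 6.5, 19.8 and 11.4 FPKM in the same order of groups, and for MMP1 it was PDIA5 (0.0806). PLAUR was nearest to COQ10B (0.184), and with summed rows to ITGA2 (0.213), which had 21.5, 6.64, 29.2 and 26.4 FPKM. PLAU with summed rows was nearest to TXNIP (0.169). For F3 and SERPINB2 the nearest rows were the small nucleolar RNAs SNORD88B (0.307) and SNORA103 (0.402), and for MMP10 and MMP9, whose levels are close to 0, AKR1C3 (0.0222) and TM9SF1 (0.017). The distance for F3 and SERPINB2 is thus larger than for any of the other 7 members.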

How the data were processed

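RNA-Seq and RNAPII ChIP-Seq were made from MCF10A-Er-Src cultures, and the 8 RNA-Seq libraries and 4 of the peak lists bear on these genes. Expected counts in the deposited tables are the authors' RSEM estimates of reads per gene after alignment of poly-A RNA reads to reference transcripts with Bowtie2, without normalization. FPKM values were deposited by the authors from the same RSEM runs, scaled by effective length and library total. The peak lists, deposited by the authors as starts and ends (other), hold hg19 peaks called over input. The lists are named for TSSs, and 85.2% to 90.7% of their peaks hold one annotated in GENCODE. The submitters' processing notes also name BWA, HOMER and MACS 1.4.2.

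The tables omit rows with no reads, which were set to 0. Of 23604 rows, 21077 carry a gene ID and 2384 a RefSeq accession that gave a symbol, and 143 gave none. Symbols came from RefSeq tables and loci, TSSs and exons from GENCODE release 44 on build 37. Expected counts were rounded and fitted with edgeR 4.0.16 in R 4.3.3 (TMM, filterByExpr by group, 1 quasi-likelihood fit of 4 groups, 5 contrasts). TMM factors spanned 0.975 to 1.03, with a common dispersion of 0.099 and a median prior df of 2.98. The steps were tested on simulated data with known changes. Alternatives were DESeq2 1.42.0, limma 3.58.1 on log2(FPKM + 1) and log2(FPKM + 0.1), other scalings, filters and thresholds, a replicate block, 2-group fits and leaving out each library. Added after the data were seen were summed rows, a crossed block and leaving out TAM replicate 2 with TAM + TPL replicate 1. A group of 1 library was assumed to vary like the others. Depth was 7461309 to 8349448 counts per library, and counting intervals (95%) cover counting error only.

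Named were all 9 members, genes of fixed companion lists that were called in any 2-group comparison or, where a list had none, its most abundant tested genes, and for each member the row with the nearest pattern. GAPDH was named for scaling, and TIMP2 and TFPI were chosen after their values were seen. The members and lists were chosen with earlier results of these data known. The promoter of 1 member and a companion gene are not reported here. Peak lists carry no replicates, so occupancy has no test. Summaries and plots used Python 3.11.15, pandas 2.3.3, numpy 2.4.6, scipy 1.17.1 and matplotlib 3.10.9.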

Additional observations from a re-analysis of the deposited data

Results flagged for a closer look

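MMP14 was the 1 member whose TPL libraries moved in opposite directions in the 2 kinds of cell. Both NT + TPL libraries (50.08 and 25 FPKM) lay below both NT libraries (50.69 and 58.40), and both TAM + TPL libraries (195.34 and 178.55) lay above both TAM libraries (117.03 and 93.91). In NT cells this separation rests on 50.08 against 50.69 FPKM. The share of all rows with such opposite movement was not computed, so the pattern is not shown to be unusual. The difference between the log2 effects was 1.34 (SE 0.41), with an adjusted p of 0.331 by edgeR's quasi-likelihood test, and is not significant.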

How the results depend on the processing

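The share of all rows called also differs between settings, so the counts of members below are not a result about the members. With TPL in NT cells that share was 3.93% in the main fit, 12.7% with summed rows and 15.1% with DESeq2. With TPL in NT cells, 1 member was called, and 4 were at an adjusted p of 0.05 or with DESeq2, 2 with GAPDH as the reference or with at least 10 counts in every library, and 0 with the replicate block or with only the 2 groups compared. With TPL in TAM cells, 1 was called, and 2 were at an adjusted p of 0.05 and 0 with the replicate block. For TAM against NT cells in TPL, 0 were called, and 2 were at an adjusted p of 0.05, with at least 10 counts or with DESeq2. Leaving out each library in turn gave 0 to 2 calls with TPL in NT cells and 0 to 2 in TAM cells. The replicate numbers do not pair the samples (correlations of replicate differences between -0.135 and 0.0501), and paired by number no member was called in any comparison. With the numbers of the NT + TPL libraries crossed, the replicate block called 98 rows and 1 member with TPL in NT cells. Chosen after the data were seen, summed rows called 4 members with TPL in NT cells (3 to 5 with 1 library left out), 1 in TAM cells (1 to 2), 3 between TAM and NT cells with TPL (0 to 4), and 2 for the difference between TPL effects without NT + TPL replicate 1. Without TAM replicate 2 and TAM + TPL replicate 1, fewer members were called with TPL in each kind of cell on either kind of row, with 1 library left in each TAM group. The peak count in NT was 5 with a TSS within 1 kb of a peak (51.9% of protein-coding genes), and in NT + TPL 2 with that rule (42.1%) or with any TSS of the gene (40.9%).

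Signs turned as follows, and the cause was not tested. With TPL in NT cells, MMP1 was -0.106 with GAPDH and -0.036 to 0.492 with 1 library left out (-0.038 without NT + TPL replicate 2 on summed rows), and PLAU was -8.73 to 6.13 with 1 left out. With TPL in TAM cells, PLAU was -0.033 with GAPDH, -0.34 with the replicate block, -0.85 to 3.496 with 1 library left out and -0.80 with summed rows (-0.855 to -0.778 with 1 left out, -0.779 without TAM + TPL replicate 2, -0.817 without either NT library, -0.824 without TAM + TPL replicate 1, -0.792 without the 2 libraries), and PLAUR was 0.10 with upper quartile scaling. For TAM against NT cells in DMSO, MMP10 was -1.94 to 3.66 with 1 library left out, PLAU was -2.77 to 9.39 (-0.353 without NT replicate 2) and -2.77 without the 2 libraries, and TIMP1 was -0.355 with GAPDH and -0.147 to 0.376 with 1 left out (-0.145 without NT replicate 2 on summed rows). For the difference between TPL effects, MMP10 was -0.12 with limma on log2(FPKM + 1), -0.22 with log2(FPKM + 0.1) and -4.20 to 1.399 with 1 library left out (-4.21 on summed rows), and PLAU was -6.05 to 8.83. In all, 692 of 735 planned member fold changes kept direction and side of the threshold, 15 were no longer called, 12 were newly called and 16 turned. Upper quartile scaling moved the median of all rows from 0.09 to 0.31 with TPL in NT cells and from 0.05 to 0.29 in TAM cells, and GAPDH moved it to -0.26 and -0.07, and to -0.50 in DMSO and -0.25 in TPL for the comparison of TAM with NT. MMP1, MMP9 and MMP10 were limited by depth, at 0 to 42 counts per library.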

Other observations

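Most other clade B serpins, relatives of SERPINB2, were not called with TPL. Of 12 such genes 11 were tested, with list medians of 0.06 and -0.18. In each kind of cell 1 was called lower with TPL (SERPINB5, maspin, with log2 fold changes of -1.90 and -1.89). The share of all rows called was 3.93% in NT cells and 2.88% in TAM cells. In TAM against NT cells 3 of the 11 were called higher in both DMSO and TPL, where 0.655% and 0.596% of all rows were called. SERPINB3 had 22.52 and 19.39 FPKM in NT and 712.08 and 747.08 in TAM, SERPINB4 had 5.93 and 10.03 against 569.71 and 592.52, and SERPINB1 had 28.36 and 25.46 against 402.42 and 435.14. SERPINB3 and SERPINB4 are near-identical copies, so the split of reads between them is uncertain.

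Among 18 other secreted and surface proteases, 17 were tested and 0 were called with TPL in either kind of cell, with the same count by summed rows. In TAM against NT cells 3 were called higher with DMSO, where 0.655% of all rows were called, and 4 with TPL, where 0.596% were. With summed rows 3 were called higher and 1 lower in each, where 2.94% and 2.59% of all genes were called. The lower gene was ST14 with DMSO (-1.27) and CTSD with TPL (-1.55). CTSB and CTSL, which encode the lysosomal cathepsins B and L, went from 136.30 and 128.77 and from 28.24 and 34.76 FPKM in NT to 1255.14 and 1214.64 and to 673.62 and 739.41 in TAM. ADAM19 had 0.48 and 0.84 FPKM in NT and 11.63 and 11.58 in TAM. ADAMTS4 was called at 11.88 in TAM against NT cells with TPL on the rows as deposited, but at 2.17 (adjusted p 0.00373) with its rows summed it was not. Its reads, like those of PLAU, are split over rows, though for PLAU summing the rows added a call and here it removed one. Of the 8 basal epithelial markers, 2 fell with TPL in NT cells (TP63 and LAMB3), 2 in TAM cells (TP63 and KRT5) and 0 rose, with medians of -0.84 and -0.58. TP63, a transcription factor of basal cells, had log2 fold changes of -5.31 in NT cells and -5.04 in TAM cells, and LAMB3, a laminin chain, fell by 3.0 in NT cells. ITGB4 and EPCAM were not called, at 0.72 and 0.43 in NT cells. In TAM against NT cells 1 of the 8 was called lower with DMSO (KRT5, a basal keratin, at -2.18), and the median was -0.27. Of the 3 leukocyte markers tested there, CD68 rose by 2.65, from 47.20 and 47.06 to 301.14 and 280.55 FPKM, whereas LYZ was at -0.34 and PTPRC at -0.02, neither called.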
